A study of Mus musculus with 6 samples.

Results

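The genes described here encode proteins of the myelin sheath of peripheral nerve or control its formation: Mbp, Pmp22, Prx, Mag, Ncmap, Egr2, Drp2 and Mal. They were taken by symbol from the deposited gene table, which held all 8 among its 16613 genes, and all 8 were among the 15043 genes that passed the filter on low counts. RNA came from whole dorsal root ganglia of mice aged 6 months. The knockout group (Kif2a fl/fl; Avil cre, 3 libraries) carried 2 floxed copies of Kif2a, a microtubule-depolymerising kinesin, plus a Cre recombinase driven by Avil. The control group (Kif2a fl/fl, 3 libraries) carried the same floxed alleles without the Cre, so any effect of the alleles themselves was common to both groups. Avil is chiefly a gene of sensory neurons, whereas peripheral myelin is made by Schwann cells, so these genes were read out in cells other than those at which the Cre was aimed. Whether each library is 1 animal or a pool is not in the labels, and p-values therefore measure the spread between these libraries, part of which may be technical.

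A Schwann cell that has paired with a single large axon wraps its membrane around it in compacted layers. The transcription factor Egr2 (Krox20), acting with Sox10, is needed to switch on genes of the myelin sheath, among them Pmp22, Mbp and Prx. Prx and Drp2 belong to a complex that ties the outer Schwann cell surface through dystroglycan to the surrounding laminin. In ganglia, myelinated axon stretches lie beside cell bodies wrapped by satellite glia, and C-fibres are held by Schwann cells that do not make myelin.

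Libraries held 16090726 to 19221415 counts, and levels are given as CPM (library-size-scaled counts with edgeR TMM factors). The Schwann cell lineage gene Sox10 was at 55.8 to 95.1 CPM over the 6 libraries, and which glial cells of the ganglia gave it was not tested. The targeted Kif2a was at 90.6, 85.7 and 88.5 CPM in knockout libraries, against 105.6, 93.9 and 92.7 CPM in control libraries (edgeR adjusted p = 0.957, and 0.284 with the block). Every knockout value of Kif2a was below every control value, as for 6.12% of tested genes. For Avil, knockout libraries gave 517.6, 451.2 and 439.5 CPM, against 1095, 1052 and 1003 CPM in control libraries (edgeR adjusted p = 0.084, and 2.39e-05 with the block), so effects of Kif2a loss, of the Cre and of lower Avil cannot be told apart. Control replicate 2 stood apart in skeletal muscle RNA: 8 muscle markers summed to 72.1, 7.54 and 12.9 CPM in knockout replicates 1 to 3, and to 31.0, 1388 and 8.08 CPM in control replicates 1 to 3. The deposited libraries share the numbers 1 to 3 between groups, and libraries of the same number deviated together over all genes, so a fit with the number as a block is given beside the fit without it.

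Upstream sequence is shown for 3 of the genes because they behaved differently across the libraries below: Prx and Mag were low in both libraries numbered 2, and Pmp22 was not. Each line is the 250 bases before the annotated start, 5′ to 3′ on the strand of the gene, from RefSeq on GRCm38.p6. The windows are chr7:27499074-27499323 on the plus strand, chr7:30914923-30915172 on the minus strand and chr11:63128732-63128981 on the plus strand, and for Mag and Pmp22, which have several starts, the outermost is shown. Capitals mark matches to ACAAAG, a core that SOX factors bind, or its reverse complement CTTTGT.
Prx: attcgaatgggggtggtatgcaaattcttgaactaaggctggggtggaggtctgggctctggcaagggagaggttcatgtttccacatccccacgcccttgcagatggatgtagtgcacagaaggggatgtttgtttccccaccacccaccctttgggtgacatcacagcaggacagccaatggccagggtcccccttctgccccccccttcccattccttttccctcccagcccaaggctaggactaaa
Mag: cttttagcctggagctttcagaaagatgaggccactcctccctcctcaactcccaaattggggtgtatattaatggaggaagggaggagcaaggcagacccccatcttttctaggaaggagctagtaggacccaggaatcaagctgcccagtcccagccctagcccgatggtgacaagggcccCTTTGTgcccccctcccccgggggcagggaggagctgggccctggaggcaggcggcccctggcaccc
Pmp22: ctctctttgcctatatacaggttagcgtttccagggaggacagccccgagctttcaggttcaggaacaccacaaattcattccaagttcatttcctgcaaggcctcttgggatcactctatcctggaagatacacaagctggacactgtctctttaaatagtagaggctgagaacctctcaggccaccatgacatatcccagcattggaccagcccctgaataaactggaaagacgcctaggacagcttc
Windows were found for 6 of the genes (Egr2, Mag, Mal, Ncmap, Pmp22 and Prx). The SOX core occurred on either strand in that of Mag alone, against 16.5% of all 32851 windows of this length. The EGR letters GCGNGGGCG and their reverse complement, which do not overlap the SOX core in sequence, occurred in 0 of the 6 windows, against 4.7% of all. A match is a description of letters only, and no match says only that these letters are not in this window.

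Per kilobase of annotated exon, the levels of the 8 genes spanned a wide range. Pmp22 had the highest mean, at 780.1 ± 59.6 CPM per kb (SD, 6 libraries), and Mbp followed at 208.5 ± 29.5 CPM per kb. The Mbp locus also holds exons of the longer Golli transcripts, which lengthen its 8.469 kb of exon and lower its value per length. Mal was at 64.8 ± 5.96 CPM per kb, Prx at 32.7 ± 10.4, Ncmap at 28.0 ± 5.72 and Drp2 at 17.8 ± 4.31 CPM per kb. Mag, at 4.66 ± 1.0 CPM per kb, and Egr2, at 2.27 ± 0.664 CPM per kb, were the lowest. Ranges over the libraries overlapped between Prx, Ncmap and Drp2, so the order of these neighbours is not fixed beyond their spread, while Pmp22, Mbp and Mal did not overlap their neighbours.

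**Figure D1:**
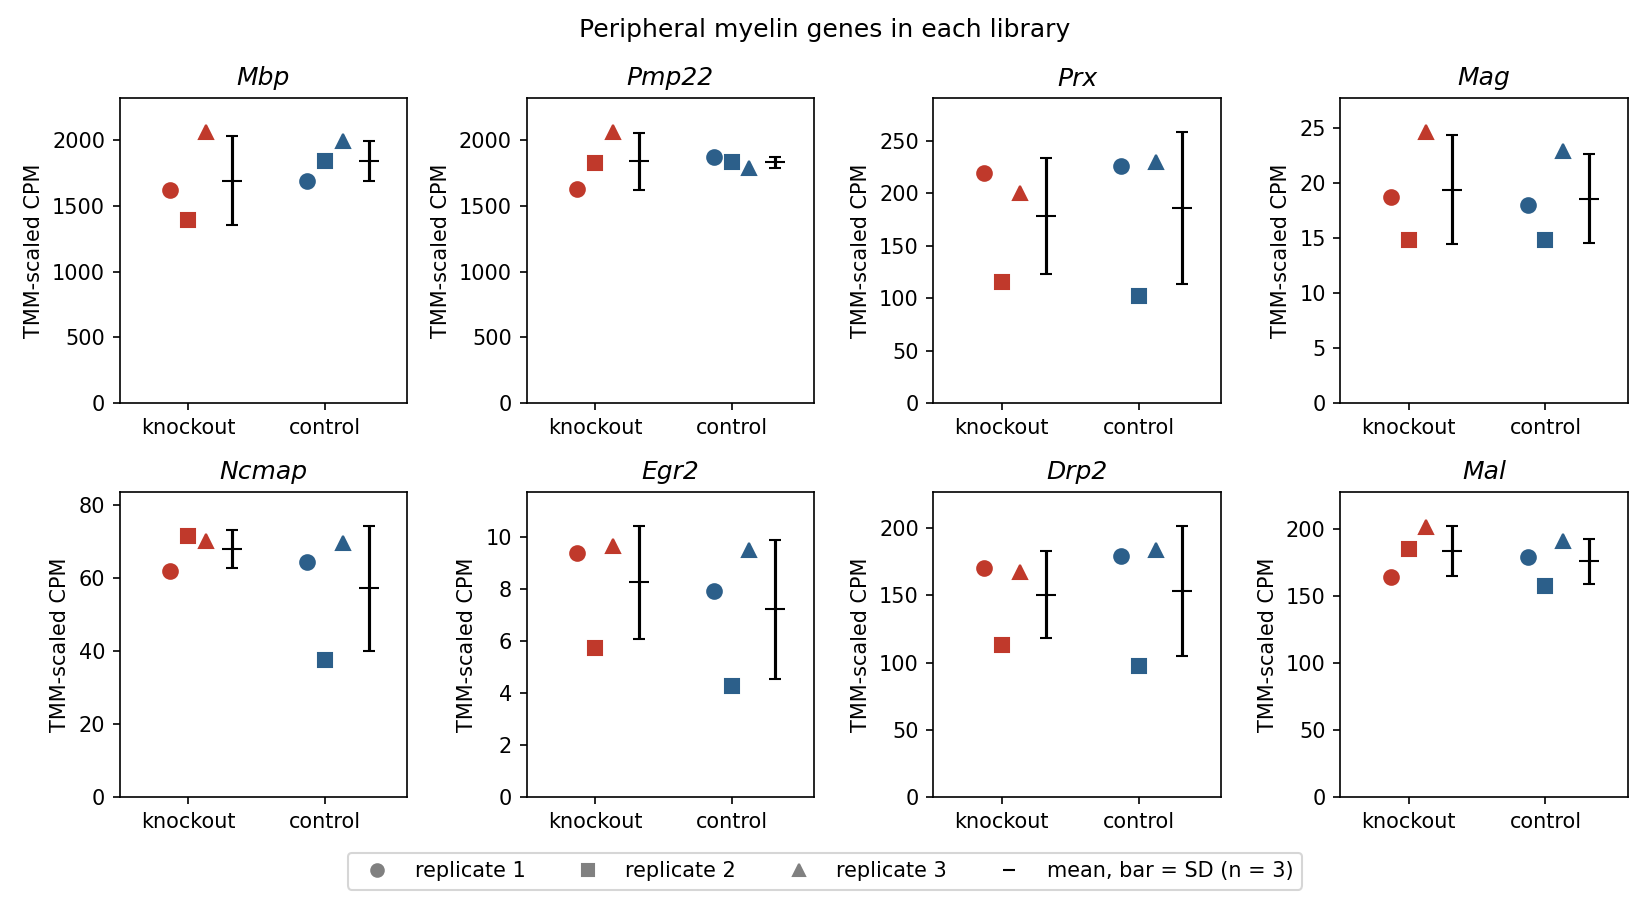
Level of each of the 8 myelin genes in TMM-scaled CPM (y axis, from 0) in knockout and control libraries (x axis), with the marker shape giving the replicate number and the black bar the mean ± SD (n = 3). Prx, Egr2, Drp2 and Mag are lowest at number 2 in both groups, and the groups overlap for all 8 genes.

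None of the 8 genes passed the test between knockout and control ganglia. In the edgeR quasi-likelihood fit without a block 0 of 8 passed an adjusted p of 0.05, as did 0 of 15043 genes (0%), of which 825 had an unadjusted p under 0.05 (5.48%) and 0 of the 8 did. With the replicate block 0 of 8 passed again, against 542 of all genes (3.6%; 1.24% higher and 2.36% lower in the knockout). DESeq2 called 0 of 8 against 0.464% of genes, and limma-voom 0 of 8 against 0%. Knockout and control libraries overlapped for all 8 genes, whereas 11.1% of tested genes had no overlap. Of the 8 genes 5 had a positive and 3 a negative log2 fold change, and their median was 0.03, beside 0.01 over all tested genes. The authors' deposited table gave log2 fold changes between -0.13 (Mbp) and 0.25 (Ncmap) for the 8, with false discovery rates of 0.923 or more.

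The compact-myelin genes Mbp, Pmp22 and Mal had the narrowest intervals of the 8 in the fit without a block. Mbp, on chromosome 18 (82475146 to 82585637, GRCm38), encodes the basic protein that holds the cytoplasmic faces of the membrane together. It was at 1622, 1391 and 2061 CPM in knockout replicates 1 to 3, against 1688, 1843 and 1990 CPM in control replicates 1 to 3. The highest and the lowest value were both knockout libraries. The log2 fold change was -0.12 (SE 0.16), and the 95% interval of the fold ran from 0.711 to 1.19 (edgeR adjusted p = 0.981). With the block it was -0.14 (SE 0.09), with a fold interval of 0.793 to 1.04.

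Pmp22, on chromosome 11 (63128982 to 63159547), encodes a tetraspan membrane protein whose duplication or loss in people causes demyelinating neuropathy. It is transcribed outside the Schwann lineage as well. Its level was 1629, 1828 and 2063 CPM in knockout libraries and 1874, 1836 and 1788 CPM in control libraries. All control values lay inside the range of the knockout values. The fold change was 0.01 on the log2 scale (SE 0.12), with a fold interval of 0.826 to 1.22 (edgeR adjusted p = 0.998). With the block the interval narrowed to 0.881 to 1.13.

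Mal, on chromosome 2 (127633226 to 127656695), encodes a proteolipid that takes part in sorting membrane cargo. It was at 164.2, 185.5 and 201.9 CPM in knockout libraries, against 179.0, 158.0 and 191.2 CPM in control libraries. The groups interleaved, and the log2 fold change was 0.06 (SE 0.13, edgeR adjusted p = 0.984). The fold interval was 0.853 to 1.28, and 0.930 to 1.17 with the block.

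Prx and its partner Drp2 varied far more between libraries. Prx, on chromosome 7 (27499324 to 27520214), encodes periaxin, the scaffold of the Schwann cell outer membrane. It was at 219.1, 115.4 and 200.1 CPM in knockout replicates 1 to 3, against 225.6, 102.5 and 230.3 CPM in control replicates 1 to 3. In each group the library numbered 2 was far below the others, and the groups did not otherwise separate. The log2 fold change was -0.06 (SE 0.34), with a fold interval of 0.561 to 1.63 (edgeR adjusted p = 0.992). The block cut the SE to 0.08 and the interval to 0.872 to 1.10. Exons of Prx overlap Gm15541 on the other strand, and no source used here says whether the libraries kept strand.

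Drp2, on chromosome X (134404551 to 134456573), encodes a dystrophin-related protein that binds periaxin. Its values were 170.8, 113.3 and 167.4 CPM in knockout libraries and 179.3, 97.6 and 183.6 CPM in control libraries. They followed those of Prx: the ratio of Prx to Drp2 CPM was 1.28, 1.02 and 1.20 in knockout libraries and 1.26, 1.05 and 1.25 in control libraries. The fold interval of Drp2 was 0.649 to 1.48 (log2 fold change -0.03, SE 0.26, edgeR adjusted p = 0.996), and 0.890 to 1.12 with the block.

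Mag, also on chromosome 7 (30899176 to 30914873), encodes an adhesion protein of the glial membrane that faces the axon. It was at 18.7, 14.8 and 24.6 CPM in knockout libraries, against 18.0, 14.8 and 22.9 CPM in control libraries. The values ran in the same order of replicate number in both groups, with number 2 lowest and number 3 highest. The log2 fold change was 0.06 (SE 0.22, edgeR adjusted p = 0.990), with a fold interval of 0.731 to 1.49, and of 0.895 to 1.21 with the block.

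Ncmap, on chromosome 4 (135369576 to 135398227), encodes a small protein of non-compact myelin. It was at 61.9, 71.4 and 70.1 CPM in knockout libraries and at 64.2, 37.6 and 69.6 CPM in control libraries. Control replicate 2 stood alone at the bottom, and the other 5 libraries lay close together. The log2 fold change of 0.25 (SE 0.21, edgeR adjusted p = 0.977) was 0.03 without control replicate 2. Its 95% fold interval was 0.843 to 1.67, and 0.682 to 2.17 with the block, which widened for this gene alone of the 8.

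Egr2, the transcription factor, lies on chromosome 10 (67535475 to 67542188). It was at 9.38, 5.73 and 9.62 CPM in knockout libraries, against 7.90, 4.25 and 9.48 CPM in control libraries, which were 72 to 177 counts. The libraries numbered 2 were again the lowest of each group, and the knockout value was above the control value of the same number in 3 of 3 pairs. The log2 fold change was 0.19 (SE 0.32, edgeR adjusted p = 0.984), and the fold interval ran from 0.691 to 1.89. With the block it was 0.22 (SE 0.15, adjusted p = 0.462), with an interval of 0.930 to 1.46.

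**Figure D2:**
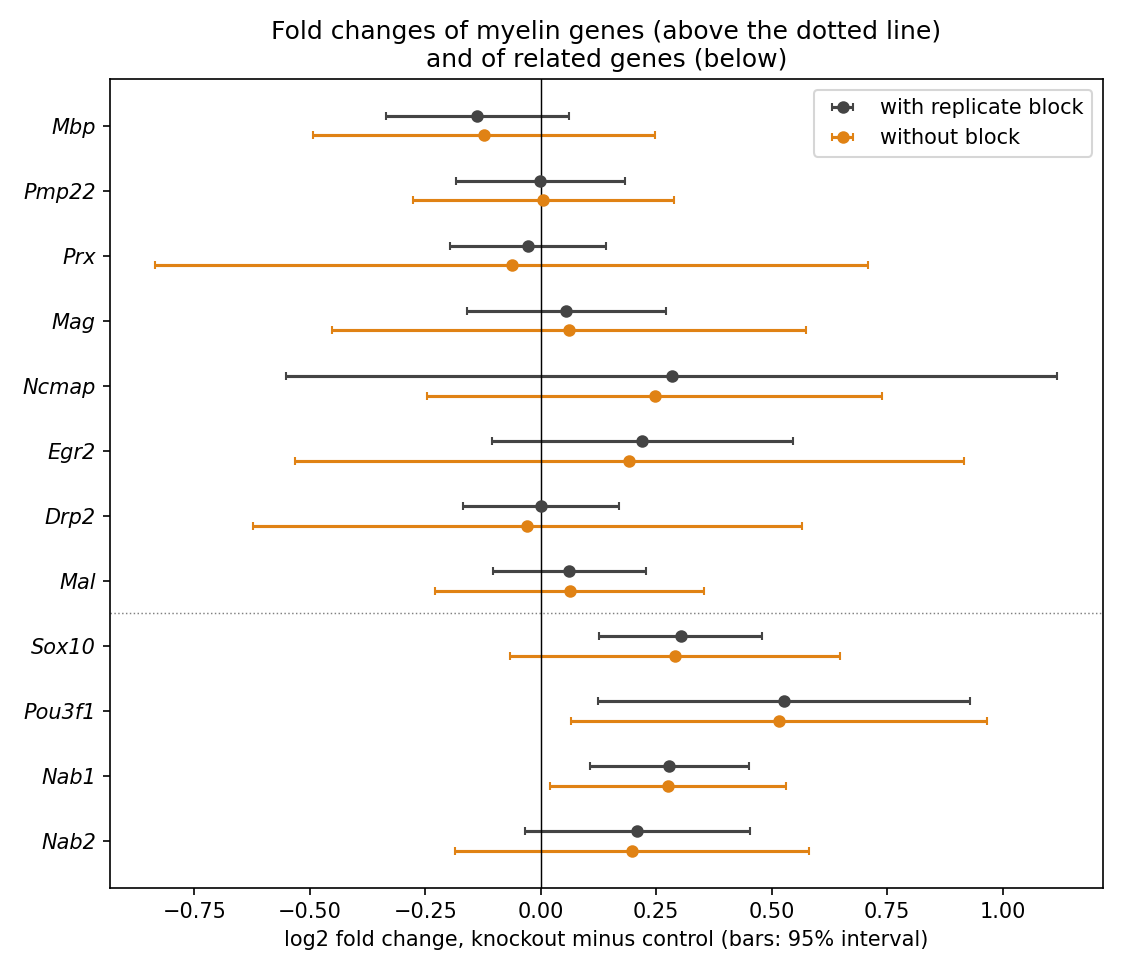
Log2 fold change, knockout minus control (x axis), with its 95% interval for the 8 myelin genes above the dotted line and Sox10, Pou3f1, Nab1 and Nab2 below it, from the fit with the replicate block (grey) and without it (orange). All intervals of the 8 genes include 0, and the intervals of Prx and Drp2 are several times narrower with the block.

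The genes upstream of Egr2 and those it works with were set beside it, from a list of 26 regulators of Schwann cell myelination. None of the 26 passed in the fit without a block or with it, and their median log2 fold change was 0.07. Pou3f1 (Oct6), which precedes Egr2 during development, was at 6.09, 6.55 and 6.35 CPM in knockout libraries, against 5.21, 3.48 and 4.57 CPM in control libraries. The groups did not overlap, as for 5.02% of tested genes with the knockout higher, and the log2 fold change of 0.52 (SE 0.20) had an edgeR adjusted p of 0.897, and of 0.146 with the block. Nab1, a cofactor that binds Egr2, averaged 47.6 ± 0.867 CPM in knockout and 39.4 ± 3.87 CPM in control libraries (SD, n = 3 each), also without overlap. Its edgeR adjusted p was 0.905, and 0.0799 with the block. The related Nab2 was at 17.1 ± 1.58 CPM in knockout and 14.9 ± 2.88 CPM in control libraries (edgeR adjusted p = 0.977).

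Sox10, the lineage factor that acts with Egr2, averaged 86.7 ± 7.58 CPM in knockout and 70.9 ± 13.4 CPM in control libraries (SD, n = 3 each). Its log2 fold change was 0.29 (SE 0.16, edgeR adjusted p = 0.930), and 0.30 (SE 0.08, adjusted p = 0.0678) with the block, higher in 3 of 3 pairs. On the negative side, the smallest p-values of the list of regulators were those of Nfatc4, a calcineurin-regulated factor, at -0.40 (SE 0.26), and Erbb3, the Schwann cell receptor for neuregulin, at -0.13 (SE 0.28). Neither passed, with edgeR adjusted p-values of 0.952 and 0.984.

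Among 19 other myelin proteins and assembly factors, 0 passed in either fit, 15 had a positive log2 fold change and the median was 0.06. Cadm4, the adhesion molecule by which Schwann cells bind the axon along the internode, averaged 112.2 ± 17.1 CPM in knockout and 95.7 ± 16.5 CPM in control libraries (SD, n = 3 each). Its log2 fold change was 0.23 (SE 0.17, edgeR adjusted p = 0.957), and the adjusted p was 0.0971 with the block. Sh3tc2, a Schwann cell endosomal gene, was at 0.30 (SE 0.20). Without control replicate 2, Cadm4 was at 0.10 and Sh3tc2 at 0.13. Their highest values with 1 library left out were 0.34 for Cadm4 (without knockout replicate 2) and 0.43 for Sh3tc2 (without control replicate 1). On the negative side Dusp15 was at -0.14 (SE 0.22) and Bcas1, known in myelinating oligodendrocytes, at -0.14 (SE 0.23).

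Of 13 genes of the laminin receptor complexes, to which Prx and Drp2 are tied, 1 passed with the block, beside 3.6% of all genes, and 0 without it. Sgcd, a sarcoglycan, had a blocked log2 fold change of -0.79 (SE 0.17, edgeR adjusted p = 0.0326), against an adjusted p of 0.614 without the block. The call was lost in the blocked fit without pair 1 (adjusted p = 0.250). Sgcd was at 4.87, 6.25 and 4.87 CPM in knockout libraries and 11.1, 8.32 and 8.20 CPM in control libraries, without overlap, as for 6.12% of tested genes with the knockout lower. Sgcd is also a muscle gene, and it was at 8.32 CPM in control replicate 2, which held the most muscle RNA. The part of muscle RNA in this difference was not tested. Itgb4, the integrin subunit of Schwann cells, was at -0.30 (SE 0.18), Dmd at 0.13 (SE 0.14) and Sgce at 0.11 (SE 0.12), and none of these passed.

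Of 15 tested genes of immature and repair Schwann cells, 2 passed with the block, both higher in the knockout, beside 1.24% of all genes higher, and 0 without it. Gap43, a growth-cone protein that sensory neurons express too, averaged 358.7 ± 4.50 CPM in knockout and 284.1 ± 10.3 CPM in control libraries (SD, n = 3 each). Its blocked log2 fold change was 0.34 (SE 0.06, edgeR adjusted p = 0.0159), and the adjusted p was 0.778 without the block. Shh, a secreted signal, was at 0.34 (SE 0.08, edgeR adjusted p = 0.045) with the block and overlapped between groups. Without pair 1 neither passed in the blocked fit (adjusted p = 0.114 for Gap43 and 0.149 for Shh), and without pair 3 Shh did not (0.114). Markers of other cells passed in the same direction with the block: 2 of 10 for sensory neurons, 2 of 8 for macrophages and 1 of 7 for fibroblasts and perineurium. These lists were mixed in direction. In the fit without a block, 8 sensory neuron markers were positive and 2 negative. For macrophages 5 were positive and 3 negative, and for fibroblasts and perineurium 4 were positive and 3 negative. The neurofilament genes Nefh and Nefm were at 0.40 (SE 0.07) and 0.40 (SE 0.09), with edgeR adjusted p-values of 0.0109 and 0.0347. The complement genes C1qa and C1qb were at 0.43 (SE 0.10) and 0.50 (SE 0.10), with edgeR adjusted p-values of 0.0339 and 0.0231, and Lum, a matrix proteoglycan gene, was at 0.41 (SE 0.07), with 0.00997. Their part in the differences of Gap43 and Shh was not tested. Jun, which drives the repair state, was at 0.19 (SE 0.18), Ngfr, the low-affinity neurotrophin receptor, at 0.11 (SE 0.25) and Egr3 at 0.57 (SE 0.19), and none of them passed in either fit. Neither did L1cam, an adhesion molecule, at -0.18 (SE 0.18), nor Olig1 at -0.82 (SE 0.76). Without control replicate 2, where Olig1 had its highest count (73), its log2 fold change was 0.02.

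Genes of the node, paranode and juxtaparanode, where axon and sheath meet, had 0 of 14 passing in either fit and a median of 0.13. Examples were Cntn1 at 0.28 (SE 0.17), the potassium channel gene Kcna1 at 0.28 (SE 0.19), Ank3 at -0.11 (SE 0.12) and Kcnq3 at -0.10 (SE 0.36). Of 20 genes of cholesterol and fatty acid synthesis, on which sheath growth depends, 0 passed in either fit and the median was 0.05. Cyp51 was at 0.25 (SE 0.11, edgeR adjusted p = 0.910), and at an adjusted p of 0.0527 with the block. Lss was at 0.16 (SE 0.10), Cers2 at -0.14 (SE 0.11) and Elovl1 at -0.09 (SE 0.09).

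**Figure D3:**
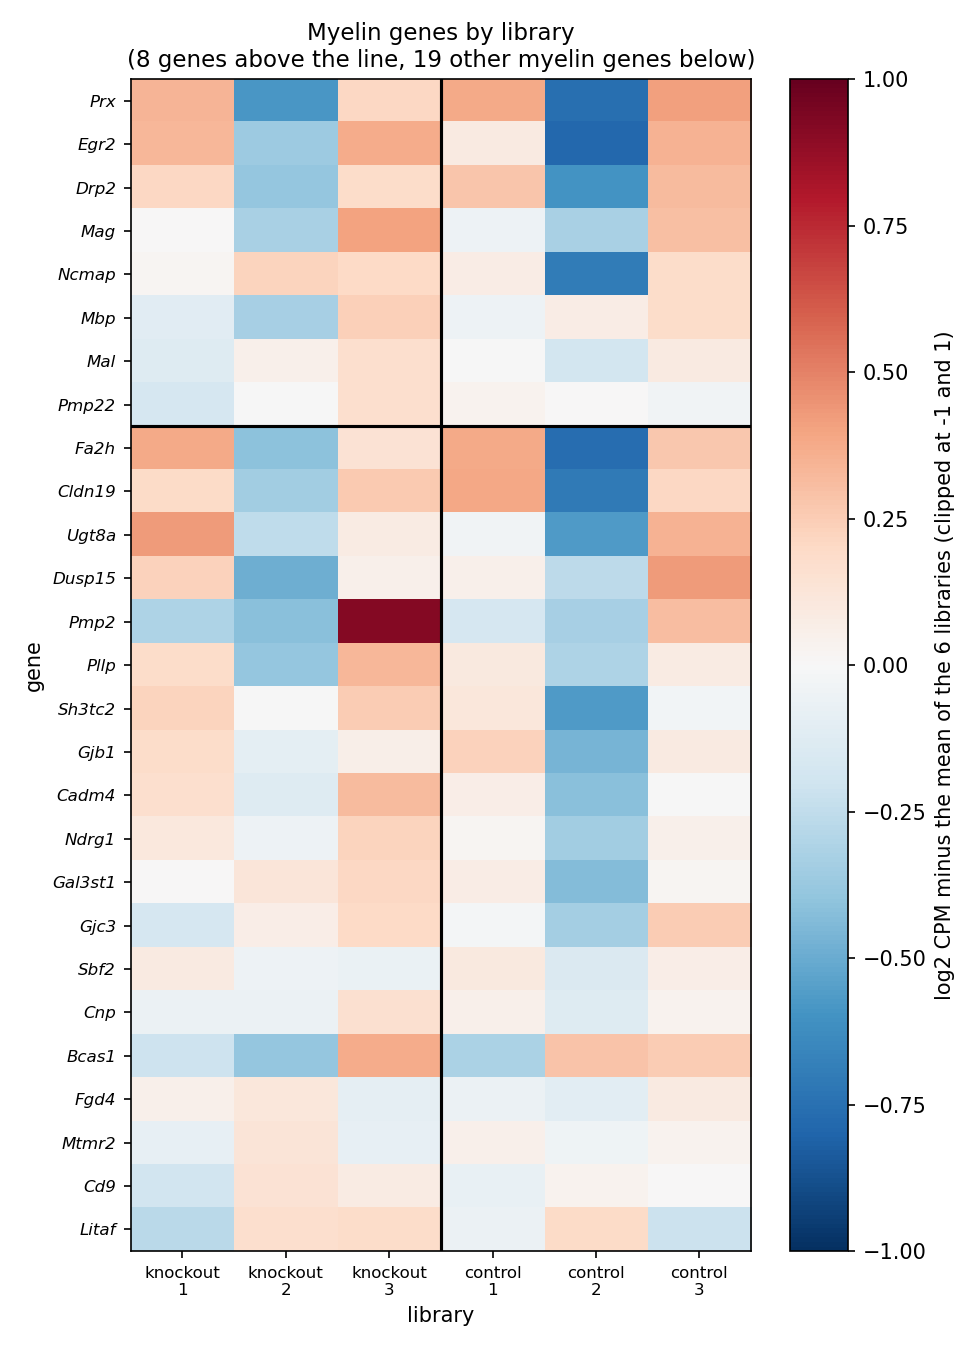
Log2 CPM of each gene (rows) minus its mean over the 6 libraries, by library (columns, knockout left of the vertical line), for the 8 myelin genes above the horizontal line and 19 other myelin genes below it, each set ordered by the difference of number 2 from numbers 1 and 3. Prx, Egr2, Drp2 and Mag and, below, Fa2h and Cldn19 are blue in both columns numbered 2.

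The widest differences of Prx, Egr2, Drp2 and Mag lay between replicate numbers. Prx in the library numbered 2 was at 55.2% of the geometric mean of numbers 1 and 3 in the knockout group and at 45.0% in the control group. The same percentages were 60.8% and 49.8% for Egr2, 67.0% and 53.8% for Drp2, and 69.4% and 73.2% for Mag. These 4 genes were therefore low at number 2 in both groups. Mbp was at 76.1% in the knockout and 100.6% in the control group, and Ncmap at 108.3% and 56.3%, each low in 1 group only. Pmp22, at 99.7% and 100.3%, and Mal, at 101.9% and 85.4%, stayed near their other libraries. Number 2 lay below the mean of numbers 1 and 3 in both groups for 4 of these 8, beside 37.4% over the whole table tested.

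The number was tested as a term of the blocked edgeR fit, a test added after these values had been seen. In simulated data this test, which has few residual degrees of freedom, called more unchanged genes than its nominal rate, so some of its calls may be false. The number term passed for 4 of these 8, beside 26.1% over all 15043. The edgeR adjusted p was 0.000308 for Prx, 0.000642 for Drp2, 0.00567 for Mag and 0.00739 for Egr2. It was 0.0703 for Mbp, 0.193 for Mal, 0.564 for Pmp22 and 0.657 for Ncmap. Leaving out both libraries numbered 2 took Prx to an adjusted p of 0.801, Drp2 to 0.973 and Egr2 to 0.652, while Mag was at 0.026 and Mbp at 0.0194. Without pair 1 Mag (edgeR adjusted p = 0.0562) and Egr2 (0.0660) did not pass, and without pair 3 Mag did not (0.0568). Prx and Drp2 passed without pair 1 and without pair 3, and Egr2 passed without pair 3. With 1 library left out, its number is left with a single library, which is assumed to vary like the others, so the values that follow describe that dependence only. Prx and Drp2 passed in each of the 6 such fits. Egr2 did not without control replicate 2 (adjusted p = 0.0528) or knockout replicate 1 (0.0593), nor Mag without knockout replicate 1 (0.0515). Ncmap passed without knockout replicate 2 (1.1e-05), where number 2 was control replicate 2 alone. Mbp passed without control replicate 2 (0.000746), control replicate 3 (0.018) or knockout replicate 2 (0.0371).

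**Figure D4:**
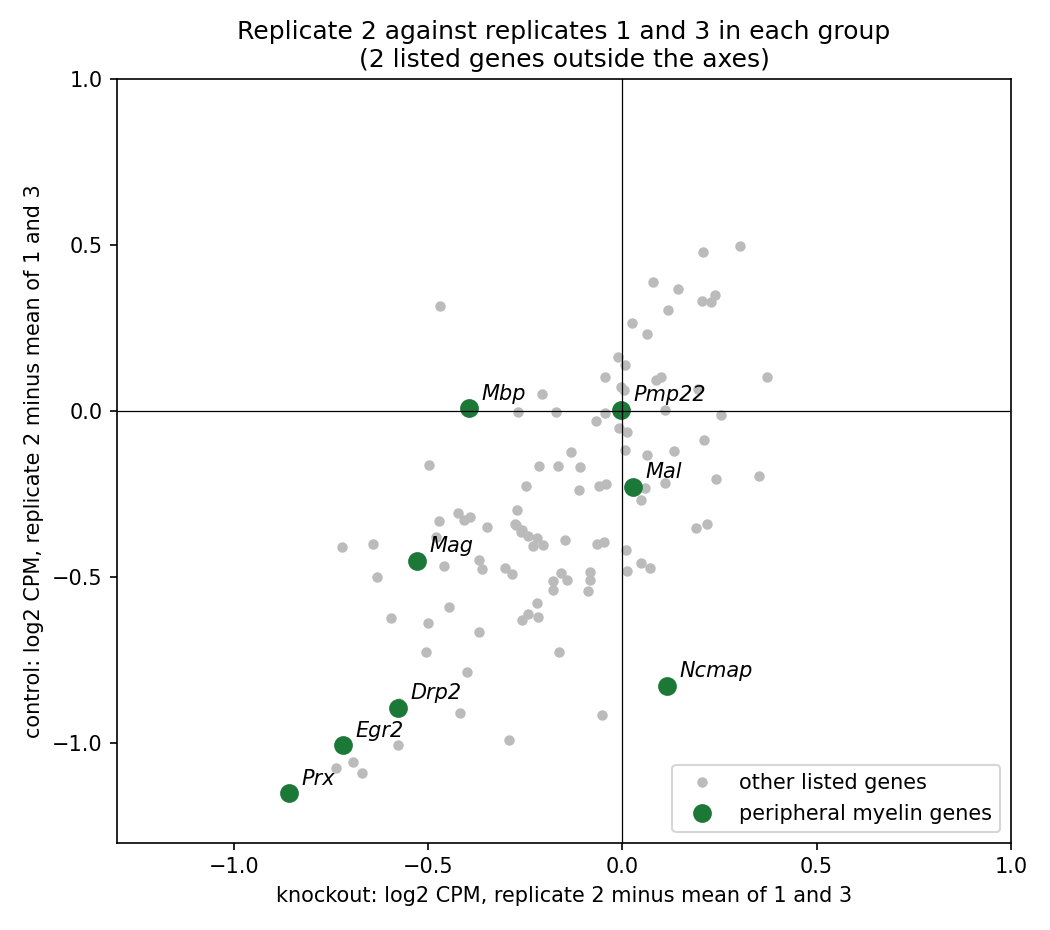
Difference in log2 CPM of the library numbered 2 from the mean of numbers 1 and 3, in the knockout group (x axis) and in the control group (y axis), for the 8 myelin genes (green, named) and the other listed genes (grey, 2 of which lie outside the axes). Prx, Egr2, Drp2 and Mag lie at the lower left, below 0 in both groups, and Pmp22 lies at the origin.

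Across the 6 libraries the highest value was 2.25 times the lowest for Prx, 2.26 times for Egr2, 1.88 times for Drp2 and 1.66 times for Mag. It was 1.90 times for Ncmap, 1.48 times for Mbp, 1.28 times for Mal and 1.27 times for Pmp22. Of the other myelin genes Fa2h, a fatty acid hydroxylase for myelin lipids, and Cldn19, a tight junction gene of the sheath, passed the number term, with edgeR adjusted p-values of 0.00129 and 0.00262. In all 7 of these 19 genes passed it (36.8%, beside 26.1% of all 15043 genes), each of them lower at number 2. Being lower there was common among all genes that passed it, at 2222 of 3928. Pmp22 and Mal stayed near their other libraries at number 2, so the low values were not shared by all myelin RNAs. In whole ganglia, fewer myelinating cells and less of the low RNAs per cell cannot be told apart, and neither was tested.

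Genes of axons and of other cell types were read for the same term, and their part in these differences was not tested. Of the 14 node and paranode genes 10 passed the number term, beside 26.1% of all genes, all 10 lower at number 2, and 13 were lower there in both groups, beside 37.4%. The 10 sensory neuron markers summed to 27766, 20924 and 24735 CPM in knockout libraries and 22653, 17471 and 22480 CPM in control libraries, lowest at number 2 in each group, and 5 of the 10 passed the term, all lower. The 8 macrophage markers summed to 92.0, 166.6 and 180.6 CPM in knockout libraries and 77.0, 144.3 and 148.0 CPM in control libraries, with number 1 lowest, and 7 passed the term. The 7 satellite glial markers summed to 4833, 6373 and 6098 CPM in knockout libraries and 4472, 5670 and 4936 CPM in control libraries, highest at number 2. Most of each sum was Apoe, at 3833, 5079 and 4785 CPM in knockout libraries and 3476, 4378 and 3836 CPM in control libraries. Of the 7 markers, 2 were higher at number 2 in both groups and 1 was lower in both. The term passed for 2 of the 7, a share of 28.6% near that of all genes. The 7 markers of fibroblasts and perineurium summed to 978.3, 1125 and 1553 CPM in knockout libraries and 732.1, 1136 and 1389 CPM in control libraries, with number 1 lowest and number 3 highest, and 5 passed. For the 8 muscle markers only control replicate 2 was high and 0 passed.

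Oligodendrocytes make Mbp, Mag and Mal as well, so their other markers were read for central tissue. Of 12 such markers 10 were in the table and 6 passed the filter. The 10 summed to 36.6, 49.3 and 58.2 CPM in knockout libraries and 35.3, 76.6 and 55.7 CPM in control libraries. The defining Mog had 2 to 13 counts and Olig2 1 to 9 counts per library, near the floor of 3 counts. Mobp, a myelin gene of oligodendrocytes, was at 3.02 to 12.3 CPM in knockout libraries and at 4.31, 36.1 and 10.7 CPM in control libraries, highest in control replicate 2. In that library Mag was at 14.8 CPM and Mbp at 1843 CPM. The part of central tissue in the values of Mbp, Mag and Mal was not tested.

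Transcript GC content and length also moved with the number. Over 14495 tested genes with a value, the median difference of number 2 from numbers 1 and 3 was 0.15 on the log2 scale in the lowest of 10 equal bins of GC content and -0.22 in the highest. By length it was 0.23 in the bin of shortest transcripts and -0.15 in that of longest. Prx, at 57.7% GC, differed by -1.005, against a median of -0.16 in its GC bin and -0.12 in its length bin. Drp2, at 48.7% GC, differed by -0.74, against medians of 0.00 and -0.15, and Egr2, at 51.4% GC, by -0.86, against -0.03 and -0.03. Mag, at 57.6% GC, differed by -0.49, against medians of -0.16 and 0.05. These 4 are named because they were low at number 2, so their place below such medians follows from that choice. Of the other myelin genes, Mbp differed by -0.19 (medians -0.03 and -0.09) and Ncmap by -0.36 (-0.12 and 0.05). Mal differed by -0.10 (0.00 and 0.02) and Pmp22 by 0.00 (0.00 and 0.07). The part of GC content and length in these differences was not tested.

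**Figure D5:**
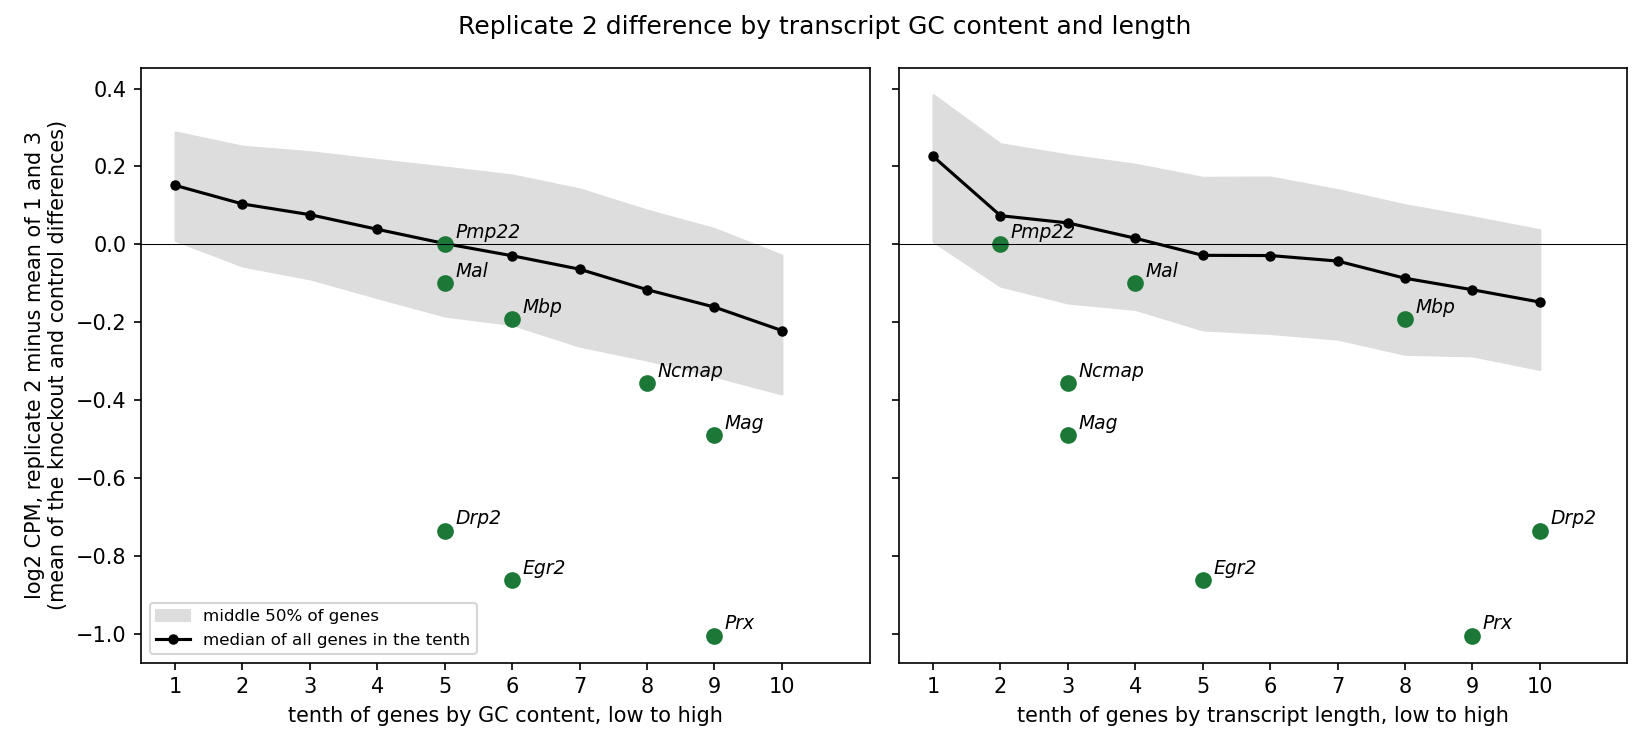
Difference in log2 CPM of number 2 from numbers 1 and 3, averaged over both groups (y axis), by bin of genes (10 bins) in GC content (left) and length (right) of the longest annotated transcript, with the median (line) and the middle 50% of genes (band), and the 8 myelin genes in green. Prx, Egr2, Drp2 and Mag lie below the band in both panels.

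The mean profile of the 8 genes over the libraries, in centred log2 CPM, was 0.06, -0.21 and 0.24 in knockout and 0.09, -0.41 and 0.23 in control replicates 1 to 3. Among 11704 candidates, other genes averaging 5 CPM or more, the 6 nearest to it were Tgfa, Cdc42ep1, Adamtsl1, Rell1, Limch1 and Stxbp6. Their root mean square difference from it ran from 0.03 (Tgfa) to 0.07 (Stxbp6), against a median of 0.28 over the candidates. They were picked for this likeness over 6 libraries, and it gives no other relation between them.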

How the data were processed

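Poly(A) RNA libraries were made from TRIzol-extracted ganglia, per the labels' protocols. Cutadapt, STAR and DESeq2 were used with mm10, per the submitters' processing notes, and no source used here gives the counting tool, the annotation or any version. Raw counts per gene symbol were deposited by the authors, together with their own log2 fold changes and p-values with a false discovery rate, per the file headers. The 12 columns of normalized and transformed values were not used. The lowest total of any gene over the libraries was 6. In R 4.3.3, counts were fitted with edgeR 4.0.16 (filterByExpr, TMM, robust quasi-likelihood, group as the only term, Benjamini-Hochberg adjustment over 15043 genes, threshold 0.05), and 95% intervals used the total degrees of freedom. Centred values are log2 CPM with a prior count of 2. Alternatives were RLE size factors, no filter, DESeq2 1.42.0, limma-voom (limma 3.58.1), the replicate block, and leaving out each library or pair. Scripts were tested on simulated data, where the test of the number term, which has few residual degrees of freedom, called more unchanged genes than its nominal rate.

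The numbers were taken as pairing the samples because same-numbered libraries deviated together from their group means (Pearson's r over genes of 0.53, 0.30 and 0.17 for numbers 1 to 3, all above 0.1). The labels do not say what a number shares, and knockout replicate 3 with control replicate 2 also reached 0.14. Coordinates, exon lengths and GC content are from GENCODE M21 (GRCm38), the build of mm10, and may differ from the authors' annotation. All 8 genes are named, and from each other list the 2 of smallest p in each direction, those that passed in either fit and genes of known role; Fa2h, Cldn19, Mog, Olig2, Mobp, Nefh, Nefm, C1qa, C1qb and Lum were added after their values were seen. Some listed genes are not reported here and were left out of the lists. The members and lists were chosen with earlier results of these data known.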

Additional observations from a re-analysis of the deposited data

How the results depend on the processing

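Over 112 combinations of the 8 genes and 14 alternatives, 0 passed the threshold and 87 kept the sign of the log2 fold change. With each single library left out in turn, log2 fold changes that changed sign ran from -0.29 to 0.00052 for Mbp, -0.085 to 0.083 for Pmp22, -0.35 to 0.17 for Prx, -0.15 to 0.24 for Mag, -0.070 to 0.44 for Egr2, -0.26 to 0.14 for Drp2, -0.0098 to 0.13 for Mal, -0.30 to 0.060 for Dusp15, -0.40 to 0.010 for Bcas1, -1.80 to 0.023 for Olig1, -0.15 to 0.29 for Ngfr, -0.37 to 0.043 for Erbb3 and -0.56 to 0.16 for Kcnq3. In the fit with the replicate block they also changed sign, without pair 1, to 0.027 for Drp2; without pair 2, to 0.0010 for Mbp, -0.016 for Ncmap, -0.018 for Mal, 0.12 for Bcas1, -0.037 for Dmd and 0.19 for Olig1; without pair 3, to -0.10 for Pmp22, 0.061 for Prx, 0.068 for Drp2, 0.17 for Erbb3 and 0.21 for Kcnq3. Pmp22 was at -0.00052 with limma-voom and -0.00078 with the replicate block, and Drp2 at 0.0040 and 0.00072; the cause was not tested. Of all genes, edgeR without the block called 0 (825 at an unadjusted p under 0.05), limma-voom 0, DESeq2 62 and the replicate block 542; it was 0 without any single library and, with the block, 208 without pair 1, 819 without pair 2 and 897 without pair 3. The replicate block called 1 of the laminin receptor genes and 2 of the immature and repair genes, as well as 2 sensory neuron, 2 macrophage and 1 fibroblast marker, and left the other lists at 0. With libraries or pairs left out, the counts were 0 to 1 for other myelin proteins, laminin receptors and lipid synthesis, 0 to 2 for regulators, 0 to 4 for immature and repair genes and 0 to 7 for node genes, each highest with pair 3 left out of the blocked fit (tied with pair 2 for laminin receptors). In that fit Sox10 and Nab1 passed (edgeR adjusted p = 0.0208 and 0.0342). The number term called 3928 genes with all libraries and 113 to 5752 with libraries or pairs left out, lowest without pair 1, and 2 to 6 of the 8 genes. It called 585 genes without knockout replicate 1 and 1540 without control replicate 1. At 72 to 177 counts, Egr2 is the gene of the 8 whose precision depth limits most.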
